A study of Mus musculus with 157 samples.

Results

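The nuclear-encoded genes of the mitochondrial respiratory chain were followed through mouse thymus and thymic lymphoma by bulk RNA-seq. Members were chosen by name alone from the 50686 gene rows of each of 2 count tables. The names are those of NADH dehydrogenase (Nduf), succinate dehydrogenase (Sdh), ubiquinol-cytochrome c reductase (Uqcr), cytochrome c oxidase (Cox4 to Cox8) and ATP synthase (Atp5) genes. Of 98 rows with such a name, 10 were processed pseudogenes and were left out, so 88 protein-coding genes remained. They comprised 35 genes of complex I, 4 of complex II, 8 of complex III, 20 of complex IV and 17 of complex V. The remaining 4, Sdhaf1 to Sdhaf4, encode assembly factors of complex II. Most comparisons tested 82 of the 88, because Cox4i2, Cox7b2, Cox8b, Cox8c and Ndufa4l2 and, by run, Cox6a2 or Cox7a1 had too few counts.

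The study compared mice labelled Cdc20(D/AAA), called aneuploid by the submitters, with controls labelled Cdc20(+/D), so that the D allele was carried by both genotypes. Cdc20 activates the anaphase-promoting complex, and its AAA form is known not to bind the checkpoint protein Mad2. The earlier run held 81 libraries of the line named RERT2. Cells sorted from non-tumoral thymus were D/AAA for 9 DN1, 1 DN2, 5 DN3, 6 DN4 and 11 DP libraries, and +/D for 6 DN1, 8 DN2, 8 DN3, 8 DN4 and 7 DP libraries. D/AAA lymphomas in that run were either sorted as DP cells (5) or unsorted (7). The unsorted ones carry the submitters' label Early Tumor, and both kinds are called early tumours here. The later run held 76 libraries of unsorted tissue. Its tumours were RERT2 D/AAA (22), RERT2 D/AAA with p53(+/D) (10), RERT2 D/AAA with MYCChr6 (3), LCK D/AAA with MYCChr6 (14), CD4 D/AAA with MYCChr6 (2), LCK +/D with MYCChr6 (4) and p53(-/-) (1). Its non-tumoral thymus was RERT2 D/AAA (9), D/AAA with MYCChr6 (3), +/D (6) and +/D with MYCChr6 (2). The labels give no age and do not spell out D, RERT2, LCK, CD4 or MYCChr6. Nor do they say that each replicate is a different animal, and p-values therefore cover the spread among these libraries, which may be partly technical.

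The respiratory chain sits in the inner mitochondrial membrane. Complexes I and II pass electrons from NADH and succinate to ubiquinone, complex III passes them on to cytochrome c and complex IV to oxygen. Complexes I, III and IV pump protons, and complex V, the ATP synthase, uses the returning protons to make ATP. Complex II is encoded wholly in the nucleus, whereas the other complexes also contain subunits encoded in mitochondrial DNA. In the thymus, T cell progenitors pass from the double negative (DN) stages, which include phases of rapid division, to the double positive (DP) stage, at which they carry both CD4 and CD8.

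Total counts ranged from 21199 to 11595500 per library in the earlier run (median 6972710) and from 1708620 to 8009570 in the later run (median 5103320). The library with 21199 counts was a DN1 D/AAA sample. DN1 +/D replicate 1, DP D/AAA replicate 1 and early DP tumour replicate 1 stood apart from their groups, and the counts that rest on them are given with and without them. Stage markers moved with the labels: between DN4 and DP of +/D thymus, Cd4 was 6.30 and Cd8a 5.55 higher at DP on the log2 scale. Cdc20 counts cannot show which allele was read, and its level averaged 206 ± 90.6 CPM in D/AAA and 178 ± 70.0 CPM in +/D DP cells. One row, CT010467.1, took 30.1% to 56.0% of the counts in the later run but 0.223% to 2.68% in the earlier one. The runs were therefore never compared with each other. CPM are read counts relative to a library total that was scaled by TMM (trimmed mean of M-values). Values after ± are SD for levels and SE for log2 fold changes, and a gene was called when edgeR's adjusted p was under 0.05.

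In +/D thymus the summed level of the complexes was lowest at DN1, highest at DN4 and low again at DP. The sum over the 84 genes of complexes I to V was 15251 ± 2166 CPM at DN1 (n = 6), 22568 ± 3439 at DN2 (n = 8), 24680 ± 4341 at DN3 (n = 8), 31195 ± 6125 at DN4 (n = 8) and 15686 ± 1285 at DP (n = 7). The DN4 libraries, at 21557 to 39264 CPM, did not overlap with the DP libraries, at 13728 to 17408 CPM. Complex V contributed the most at every stage and moved the most. Its sum was 1.08 ± 0.0901 times that of complex I at DN1, 1.33 ± 0.0725 at DN2, 1.34 ± 0.106 at DN3, 1.46 ± 0.0757 at DN4 and 1.17 ± 0.0800 at DP. These are shares of all RNA in a bulk sample, in which fewer cells of a type and less RNA per cell cannot be told apart.

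**Figure D1:**
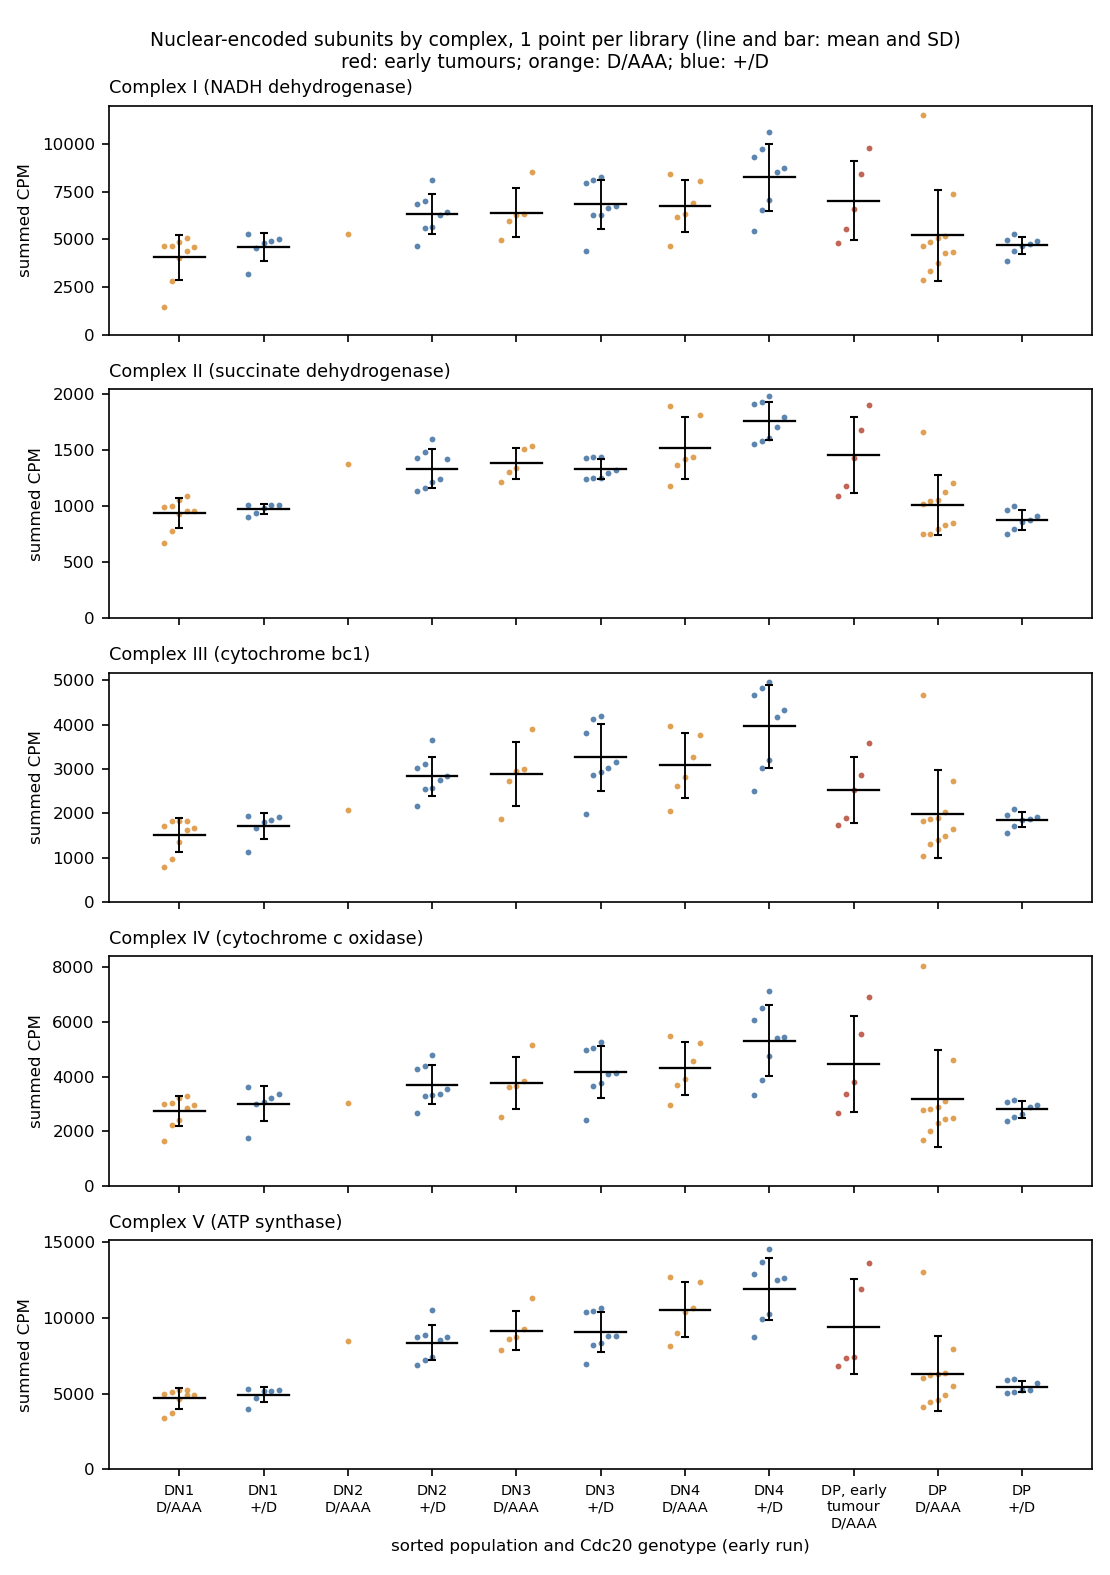
Summed CPM of the members of each complex (I to V, 1 panel each) in every library of the earlier run, by stage, for sorted early tumours, D/AAA and +/D thymus. In +/D thymus all panels peak at DN4, where complex V averaged 11916 CPM, and fall at DP, where it averaged 5474 CPM; 1 D/AAA library at DP stands above the others in every panel.

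Among single members, the ATP synthase c-ring gene Atp5g1 had its highest median at DN4 and its lowest at DP. Its level (lowest, median, highest) was 201, 226 and 276 CPM in DN1 libraries, 316, 420 and 507 in DN2, 340, 477 and 692 in DN3, 398, 599 and 683 in DN4, and 113, 137 and 159 in DP libraries. Every DP library lay below every library of each earlier stage. Atp5b encodes the catalytic subunit of the ATP synthase head, and its levels were 1135, 1184 and 1340 CPM in DN1 libraries, 2056, 2445 and 3012 in DN2, 2416, 2671 and 3143 in DN3, 3013, 3992 and 4419 in DN4, and 1306, 1497 and 1694 in DP libraries. Its DN1 and DP libraries were the low ones, and no DN2, DN3 or DN4 library came down to them. Per kilobase of annotated exon, the most abundant members at DN4 were the small subunits Uqcr11 (1278 CPM per kb), Cox6a1 (1092) and Uqcr10 (934), followed by Atp5b (895). At DP, Cox6a1 (709 CPM per kb) and Cox6b1 (461) led. Exon length here joins all annotated exons of a gene, 4237 bases for Atp5b and 641 for Uqcr11. It can exceed the length of any transcript of the gene, so the order depends on the annotation as well as on the counts.

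The promoters below belong to members at both ends of the data. Of the 12 most strongly reduced members at DP against DN4 and the 12 most strongly raised in tumours against +/D thymus, 6 were shared: Atp5g1, Atp5g2, Cox5a, Ndufa12, Uqcr11 and Uqcrq. Uqcrq was matched to no RefSeq start and was not searched, and Cox5a and Ndufa12 had no motif match. The 3 with a motif match in the 250 bases before the RefSeq start are printed 5′ to 3′ with the match in capitals. They are an E-box CACGTG 44 bases before the start of Atp5g1 (GRCm38.p6 chr11:96075632-96075881, minus strand), an NRF1 motif (GCGCA and GCGC with any 1 base between them) 42 bases before that of Atp5g2 (chr15:102671048-102671297, minus strand) and an ETS motif CCGGAAG 66 bases before that of Uqcr11 (chr10:80406822-80407071, minus strand).
Atp5g1: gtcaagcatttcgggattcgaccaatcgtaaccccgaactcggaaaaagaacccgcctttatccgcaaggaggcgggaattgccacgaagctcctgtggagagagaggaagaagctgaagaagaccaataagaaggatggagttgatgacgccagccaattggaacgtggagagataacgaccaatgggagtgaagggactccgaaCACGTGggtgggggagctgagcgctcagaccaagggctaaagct
Atp5g2: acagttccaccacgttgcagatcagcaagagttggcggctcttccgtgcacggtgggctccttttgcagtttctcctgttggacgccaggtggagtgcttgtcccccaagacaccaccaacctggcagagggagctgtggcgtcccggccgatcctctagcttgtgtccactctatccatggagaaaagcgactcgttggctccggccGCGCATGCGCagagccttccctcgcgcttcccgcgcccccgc
Uqcr11: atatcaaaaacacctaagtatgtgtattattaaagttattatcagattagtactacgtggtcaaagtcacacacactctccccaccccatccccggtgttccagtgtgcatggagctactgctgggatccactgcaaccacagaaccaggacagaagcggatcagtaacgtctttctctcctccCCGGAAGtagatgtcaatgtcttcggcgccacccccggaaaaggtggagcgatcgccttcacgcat

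RefSeq windows (250 bases before to 50 after a start) matched 70 members by symbol, and both strands were searched. The NRF1 motif, bound by a known regulator of respiratory chain genes, was found in 27.1% of members, 12.7% of the other genes tested in at least one comparison and 5.19% of all genes in the table. CCGGAAG was found in 27.1%, 22.6% and 9.93% of the same sets, the YY1 motif (AAGATGG followed by CGGC) in 5.71%, 2.06% and 0.755%, the CRE motif TGACG followed by TCA in 5.71%, 3.75% and 2.03%, and CACGTG in 7.14%, 12.2% and 8.09%. GC content averaged 57.5% in members, 60.9% in the other tested genes and 53.6% in all genes. These are matches of letters and not measured sites.

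Between DN1 and DN2 of +/D thymus, 48 of the 82 members tested (58.5%) rose and 0 fell, while 24.1% of 13189 genes were called higher and 49.8% were called in either direction. Members had a median log2 fold change of 0.53, against -0.01 for all tested genes. For 23 members (28%) every DN2 library lay above every DN1 library, as it did for 13.3% of all tested genes. By complex, 16 of 35 members were higher in complex I, 3 of 4 in complex II, 7 of 8 in complex III, 8 of 14 in complex IV and 13 of 17 in complex V. Without 1 DN1 library that had low sums of complexes I, III and IV (left out after seeing the data), 45 members were higher and 2, Cox8a and Ndufa13, lower.

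Ndufc2, a membrane-arm subunit of complex I, had 76.7, 110 and 141 CPM (lowest, median, highest) at DN2, against 19.6, 43.3 and 46.8 CPM at DN1. Ndufa12, an accessory subunit of the NADH-binding module, had 112, 171 and 216 CPM at DN2, against 41.9, 68.4 and 101 CPM at DN1. In both genes the stages did not overlap, with log2 fold changes of 1.43 ± 0.20 (adjusted p = 7.43e-06) for Ndufc2 and 1.24 ± 0.20 (adjusted p = 3.66e-05) for Ndufa12. Ndufb6, also of the membrane arm, rose by 1.17 ± 0.20 (adjusted p = 7.53e-05), but 31.6% of its 50-base windows are shared with the overlapping gene Smim27. The largest change was that of Cox6b2, an isoform of the complex IV subunit Cox6b known from testis. It had 17.5, 33.6 and 51.4 CPM at DN2, against 0, 0.761 and 2.71 CPM at DN1, and rose by 4.96 ± 0.77 on the log2 scale (adjusted p = 4.73e-05). Cox7a1, the muscle isoform of Cox7a, rose by 4.69 ± 1.06 (adjusted p = 0.00109), with 5.17 ± 2.5 CPM at DN2 and 0.182 ± 0.447 CPM at DN1. Neither Cox6b2 nor Cox7a1 had enough counts to be tested between D/AAA and +/D cells at DN1. They thus passed the count filter through DN2, and only a rise could have been called. Both are counted among the members that rose.

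Markers of other cells also moved at this step. All 7 of 7 tested NKT and innate lymphoid genes were lower at DN2, where their sum ran from 175 to 486 CPM, against 4432 to 5234 CPM at DN1. All 8 cell division genes were higher at DN2, with sums of 566 to 2392 CPM, against 84.4 to 179 CPM at DN1. B cell genes fell in 5 of 6 and myeloid genes in 4 of 5 tested, while 49.8% of all tested genes were called in either direction. The part of these differences in the respiratory chain values was not tested.

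From DN2 to DN3 no member passed the test, with 3.62% of 12477 genes called. Members had a median log2 fold change of 0.14, 66 of 82 were positive, and 6 (7.32%) had an unadjusted p under 0.05, against 15% of all genes. The smallest p-values belonged to Cox6b2 (-0.58 ± 0.18, adjusted p = 0.0864), Atp5k (0.47 ± 0.19, adjusted p = 0.195) and Cox7a2 (0.42 ± 0.17, adjusted p = 0.214). DESeq2 called 1 member at this step.

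From DN3 to DN4, 7 of 82 members (8.54%) rose and 2 (2.44%) fell, while 7.85% of 12427 genes were called higher, 9.9% lower and 17.7% in either direction. The share of members that rose was thus near that of all genes, and the share called in either direction (11%) was lower. Atp5a1, the other main subunit of the catalytic head, had 1537, 1740 and 1917 CPM at DN4, against 962, 1265 and 1433 CPM at DN3, without overlap (0.42 ± 0.09, adjusted p = 0.00237). Sdhb, the iron-sulphur subunit of complex II, rose by 0.50 ± 0.13 (adjusted p = 0.0103), Uqcrfs1, the Rieske iron-sulphur protein of complex III, by 0.49 ± 0.13 (adjusted p = 0.0113), and the c-ring gene Atp5g3 by 0.50 ± 0.14 (adjusted p = 0.0131). Ndufa4, a complex IV subunit despite its name, rose by 0.53 ± 0.18 (adjusted p = 0.0432) and Cox5a, which binds the core of complex IV, by 0.45 ± 0.14 (adjusted p = 0.0297). Cox6b2 moved against them: it had 3.82, 6.09 and 9.34 CPM at DN4, against 17.6, 23.7 and 27.6 CPM at DN3, and fell by 1.95 ± 0.21 (adjusted p = 1.24e-06). Its stages did not overlap, and among the alternatives run it missed the threshold only in a single fit of the whole run (-1.92, adjusted p = 0.057). That fit called 2 members at this step instead of 9. Sdhaf4 fell by 0.66 ± 0.23 (adjusted p = 0.0472).

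From DN4 to DP of +/D thymus, 69 of 82 members (84.1%) fell and 0 rose, while 26.3% of 12272 genes were called lower and 55.0% in either direction. The median log2 fold change was -0.88 for members and 0.06 for all tested genes, and 79 members were negative. In 39 members (47.6%) every DP library lay below every DN4 library, against 14.7% of all tested genes. The fall took in 28 of 35 members of complex I (median -0.81), 4 of 4 of complex II (-0.92), 8 of 8 of complex III (-0.98), 11 of 14 of complex IV (-0.86) and 15 of 17 of complex V (-1.03). Of the complex II assembly factors, 3 of 4 fell.

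Atp5g1 fell by 2.0 ± 0.13 on the log2 scale (adjusted p = 2.51e-10), with 133 ± 16 CPM at DP (n = 7) and 561 ± 111 CPM at DN4 (n = 8). Atp5e, a small subunit of the rotating central stalk, had 74.6, 95.6 and 117 CPM at DP, against 162, 359 and 448 CPM at DN4 (-1.72 ± 0.19, adjusted p = 1.8e-07). Uqcrq, an accessory subunit of complex III, had 170, 232 and 278 CPM at DP, against 388, 766 and 966 CPM at DN4 (-1.60 ± 0.19, adjusted p = 4.47e-07). None of these 3 genes overlapped between stages. Ndufa12 fell by 1.57 ± 0.16 (adjusted p = 8.09e-08), so that its DP level of 73.8 ± 13.9 CPM was close to its DN1 level of 71.7 ± 20.7 CPM. Atp5b fell by 1.27 ± 0.10, with 1494 ± 136 CPM at DP and 3791 ± 493 CPM at DN4. Atp5g2, the least abundant c-ring gene, fell by 1.51 ± 0.32 (adjusted p = 0.000423) with overlapping libraries, and 38.4% of its 50-base windows are shared with other genes.

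Succinate dehydrogenase, the complex that also belongs to the citric acid cycle, had all 4 subunits called lower at DP. The flavoprotein gene Sdha had medians of 486, 586, 532, 666 and 405 CPM from DN1 to DP in +/D thymus. Sdhb had medians of 244, 370, 416, 621 and 267 CPM over the same stages. The membrane anchors had 66.5, 99.7, 94.4, 116 and 70.4 CPM for Sdhc and 175, 261, 286, 364 and 142 CPM for Sdhd. Each of the 4 genes was highest at DN4. The 3 c-ring genes encode the same mature protein. Per kilobase of exon, Atp5g1 made up 12.9% of their sum at DP and 20.5% at DN4, Atp5g3 84.6% at DP and 76.8% at DN4, and Atp5g2 2.44% at DP and 2.77% at DN4. These shares depend on the joined exon lengths, 4912 bases for Atp5g1 and 2181 for Atp5g3. Not divided by length, Atp5g1 averaged 133 CPM at DP and 561 CPM at DN4, and Atp5g3 387 CPM at DP and 934 CPM at DN4.

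The 13 members not called at this step were Ndufa3, Ndufa6, Ndufa13, Ndufb11, Ndufs3, Ndufs4, Ndufv3, Atp5h, Atp5s, Cox6b2, Cox7a1, Cox7a2l and Sdhaf2. Ndufs3 is a core subunit of complex I and Atp5h part of the ATP synthase peripheral stalk, whereas Atp5s is not part of the core enzyme. Cox7a2l is known to join complexes III and IV. Markers that moved at the same step were red cell genes (5 of 5 lower, sums of 0.495 to 11.5 CPM at DP, against 118 to 3182 CPM at DN4) and cell division genes (6 of 8 lower, 686 to 2054 CPM at DP, against 1083 to 3223 CPM at DN4). Of all tested genes 26.3% were called lower, and the part of these markers in the fall was not tested.

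**Figure D2:**
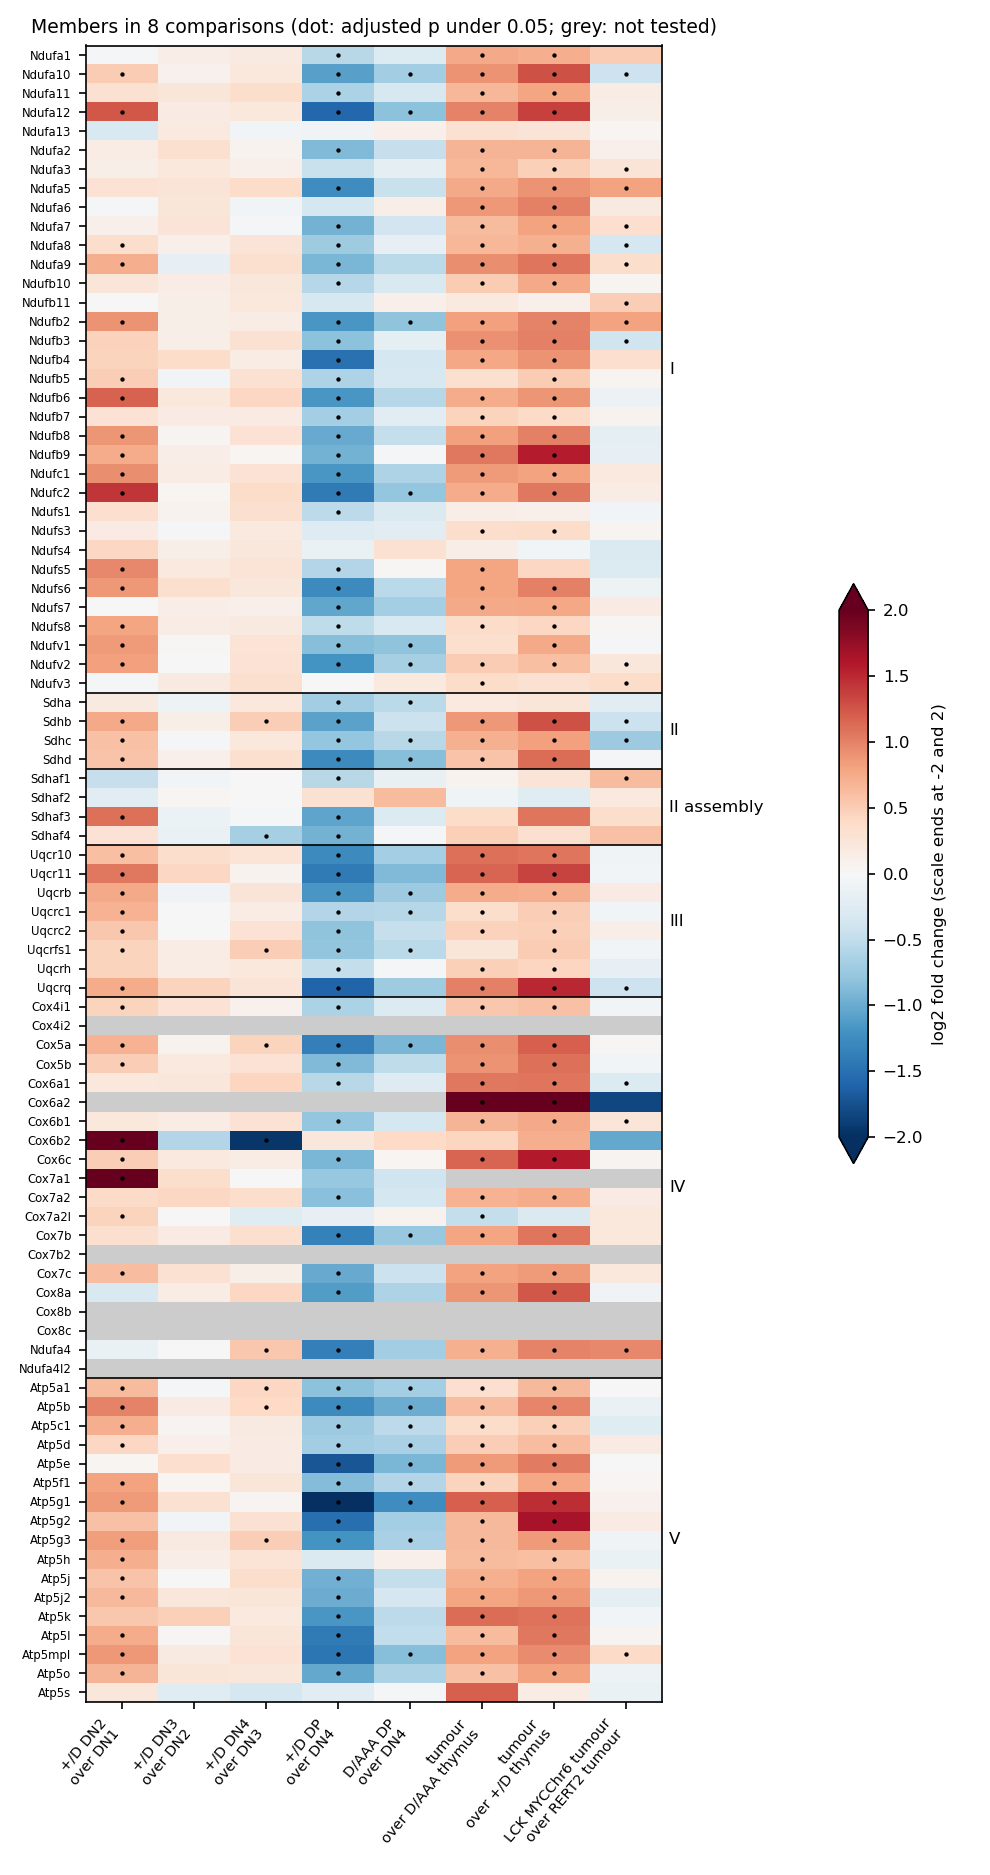
Log2 fold change of the members (rows, by complex, 1 left out) in 8 comparisons (columns), with a dot where the adjusted p was under 0.05 and grey where a gene was not tested. Colours end at -2 and 2. The columns for DN2 over DN1, tumours over D/AAA thymus and tumours over +/D thymus are mostly positive, with 48, 67 and 68 members called higher, and the column for +/D DP over DN4 is mostly negative, with 69 called lower.

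The companion genes of the pathway were counted in the same fits. Of all tested genes, 24.1% were called higher and 49.8% in either direction at DN2 over DN1. At DP over DN4 of +/D thymus, 26.3% were called lower and 55.0% in either direction. Of the 13 mitochondrial-encoded subunits, 0 rose and 1 fell at DN2 over DN1 (mt-Nd4, -0.76), and 4 fell at DP over DN4 in +/D thymus, led by mt-Nd1 (-1.34). The ratio of summed nuclear-encoded to summed mitochondrial-encoded CPM was 1.61 ± 0.40 at DN1, 3.26 ± 0.93 at DN2, 4.01 ± 2.24 at DN3, 4.85 ± 1.16 at DN4 and 3.05 ± 0.82 at DP. Of 16 citric acid cycle genes tested, 10 rose and 1 fell at DN2 over DN1, where Fh1 (fumarate hydratase) rose by 1.15. At DP over DN4, 12 fell and 0 rose, with Suclg2 (a subunit of succinyl-CoA ligase) at -2.24, Fh1 at -1.64 and Idh3a (an isocitrate dehydrogenase subunit) at -1.29. Complex I assembly factors fell in 9 of 15 and rose in 1 at DP over DN4, led by Ndufaf6 (-2.24) and Ndufaf4 (-2.01). Of 20 assembly factors of complexes III and IV, 9 fell and 3 rose at that step. Among 11 tested transcription factors and coactivators of respiratory genes, Pprc1 (-2.19), Tfam (-0.94) and Ppargc1b were lower at DP and Esrra (0.89) was higher.

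D/AAA cells were compared with +/D cells at 4 stages, and no member passed the test at any of them. All sorted +/D libraries have lower library numbers than all sorted D/AAA libraries, so genotype and library order cannot be told apart. Total counts averaged 8163920 in +/D and 5941810 in D/AAA libraries at DN1, and 9008870 and 5949280 at DN3. They averaged 8767150 and 6604260 at DN4, and 7433400 and 5420000 at DP. At DN1, 0 of 80 members and 0.0% of 12822 genes were called, at DN3 0 of 82 and 0.0% of 12912, at DN4 0 of 82 and 0.0081% of 12348, and at DP 0 of 82 and 0.00803% of 12451. Members with an unadjusted p under 0.05 numbered 0 at DN1, 2 (2.44%) at DN3, 14 (17.1%) at DN4 and 12 (14.6%) at DP, and 2.75%, 4.25%, 6.46% and 10.6% of all tested genes were under the same threshold at these stages. A count of 0 calls does not show that the levels were equal. DESeq2 called 0 members at DN1, DN3 and DN4 and 1 at DP. Members had a median log2 fold change of -0.07 at DN1, -0.08 at DN3, -0.24 at DN4 and 0.25 at DP. Leaving out the DN1 library with 21199 counts gave a median of -0.06 and again 0 calls. Without DN1 +/D replicate 1 the DN1 median was -0.17, also with 0 calls. Without DP D/AAA replicate 1 the DP median was 0.02. The alternatives without a replicate 1 were added after seeing the data.

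Ndufs5, a small complex I subunit, had the smallest p at DN3 and DN4. At DN3 the D/AAA libraries held 67.3, 123, 92.8, 65.1 and 65.1 CPM, against 77.0, 128 and 166 CPM (lowest, median, highest) in +/D libraries. At DN4 it had 78.2, 88.0 and 132 CPM in D/AAA, against 89.6, 173 and 215 CPM in +/D. All 5 D/AAA libraries at DN3 and all 6 at DN4 lay below the +/D median, but the groups overlapped. The differences were -0.60 ± 0.20 (adjusted p = 0.995) and -0.67 ± 0.18 (adjusted p = 0.588), and 21.7% of the windows of Ndufs5 are shared with a processed pseudogene. At DP the smallest p belonged to Ndufb4, with 10.7, 14.8 and 30.9 CPM in D/AAA and 6.16, 8.87 and 13.5 CPM in +/D cells (0.93 ± 0.28, adjusted p = 0.283). All 11 D/AAA libraries lay above its +/D median.

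Within D/AAA thymus the step from DN4 to DP was called in fewer members than in +/D. Of 82 members, 23 (28%) fell and 0 rose, while 14.4% of 12464 genes were called lower and 31.6% in either direction. The median log2 fold change was -0.46 for members and 0.08 for all genes. Atp5b fell by 0.99 ± 0.18 (adjusted p = 0.000353), with 1182, 1840 and 2933 CPM at DP and 2838, 3640 and 4257 CPM at DN4. Atp5g1 fell by 1.24 ± 0.35 (adjusted p = 0.00997), with 73.1, 137 and 684 CPM at DP and 257, 415 and 633 CPM at DN4. Its highest DP library lay above every DN4 library, while its DP median equalled that of +/D DP cells. Sdhd (-0.85 ± 0.24, adjusted p = 0.01), Cox5a (-0.91 ± 0.29, adjusted p = 0.0192) and Atp5e (-0.91 ± 0.34, adjusted p = 0.0475) also fell. From DN3 to DN4 of D/AAA thymus 0 of 82 members were called, with 2.97% of 11887 genes called. The smallest p was that of Cox6b2, with 8.89 ± 4.18 CPM at DN4 and 30.0 ± 16 CPM at DN3 (-1.78 ± 0.49, adjusted p = 0.0643). DESeq2 called 2 members, and edgeR had 5 (6.1%) at an unadjusted p under 0.05, against 12.7% of all genes.

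The D/AAA count depended on which libraries were included. DP D/AAA replicate 1 had a summed level of 38930 CPM, against 10456 to 23772 CPM in the other 10. The same library had 307 CPM of Cd4, against 1009 to 1980 CPM in the others, and 293 CPM of Myc. Without it (added after seeing the data) 52 members fell, and without replicates 1 and 5 45 were called, 44 of them lower. Within the earlier-numbered block of libraries 0 were called, and Atp5g1 (-0.95) and Atp5b (-1.0) missed the threshold there. Of the DP D/AAA libraries that block held only replicates 1 to 5, so it kept both replicates 1 and 5 in a smaller group.

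The difference between genotypes in the DP over DN4 step was tested as an interaction, added after seeing the data. No member and 0 of 13966 genes passed. The difference (D/AAA step minus +/D step) was positive in all 82 members with a median of 0.44, against 0.05 for all genes. An unadjusted p under 0.05 was found for 6 members (7.32%) and 7.5% of all genes, which is nearly the same share. Without DP D/AAA replicates 1 and 5 the median was 0.28 and 77 were positive. An unadjusted p under 0.05 was then found for 6.1% of members and 6.36% of all genes. Within the earlier-numbered block of libraries the median was 0.64, and again 0 genes passed. In that block 28 members (34.1%) and 10% of all genes had an unadjusted p under 0.05. The block kept DP D/AAA replicates 1 and 5 in a smaller group of DP D/AAA libraries. For the DN4 over DN3 step, 0 of 14157 genes passed, and the median was -0.14.

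Early tumours sorted as DP cells were set against DP cells of D/AAA thymus, and 0 of 82 members and 0.0% of 12245 genes were called. Members had a median log2 fold change of 0.44, against -0.07 for all genes, 76 were positive, and 24 (29.3%) had an unadjusted p under 0.05, against 22.2% of all genes. The summed level was 24885 ± 7892 CPM in the 5 tumours and 17717 ± 7867 CPM in the 11 DP libraries, and the groups overlapped. Atp5c1, the central stalk subunit that turns within the catalytic head, had 561 to 910 CPM in tumours, against 267 to 708 CPM in DP cells (0.79 ± 0.21, adjusted p = 0.0879). All 5 tumours lay above the DP median. Ndufa10, a complex I membrane-arm subunit (0.94 ± 0.27, adjusted p = 0.0919), and Ndufs1, a core subunit of electron input (0.64 ± 0.20, adjusted p = 0.101), came next.

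This count turned on single libraries. Without DP D/AAA replicate 1 (added after seeing the data) 38 members were called, all higher in tumours, and without replicates 1 and 5 35 were called. Without early tumour replicate 1 there were 6, within the later-numbered block of libraries 17, in one fit of the run 21, and by DESeq2 4. Early tumour replicate 1 had 1186 CPM of Cd4, against 121 to 552 CPM in the other 4, and Cox6c levels followed that split in part: 341, 548, 1243, 789 and 388 CPM in replicates 1 to 5. Replicate 1 was the lowest and replicate 3 the highest. The 7 unsorted early tumours had a summed level of 18994 ± 4928 CPM (14362 to 26797), overlapping with the sorted ones (17962 to 35886), and were not tested.

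In the later run the tumours stood well above thymus. The summed level of complexes I to V was 9513 ± 900 CPM in the 22 RERT2 D/AAA tumours (7713 to 11663), against 6032 ± 1527 CPM in 9 D/AAA thymus libraries (3776 to 7978) and 5382 ± 563 CPM in 6 +/D thymus libraries (4821 to 6342). Tumours did not overlap with +/D thymus and overlapped with D/AAA thymus at its upper end. Complex I summed to 2562 ± 247 CPM in tumours and 1517 ± 168 CPM in +/D thymus, and complex II to 423 ± 58.2 CPM in tumours and 238 ± 19.3 CPM in +/D thymus. The sums were 1072 ± 142 CPM in tumours and 599 ± 91.8 CPM in +/D thymus for complex III, 2282 ± 219 CPM in tumours and 1251 ± 177 CPM in +/D thymus for complex IV, and 3173 ± 326 CPM in tumours and 1776 ± 125 CPM in +/D thymus for complex V. All 5 complexes were thus higher in tumours.

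**Figure D3:**
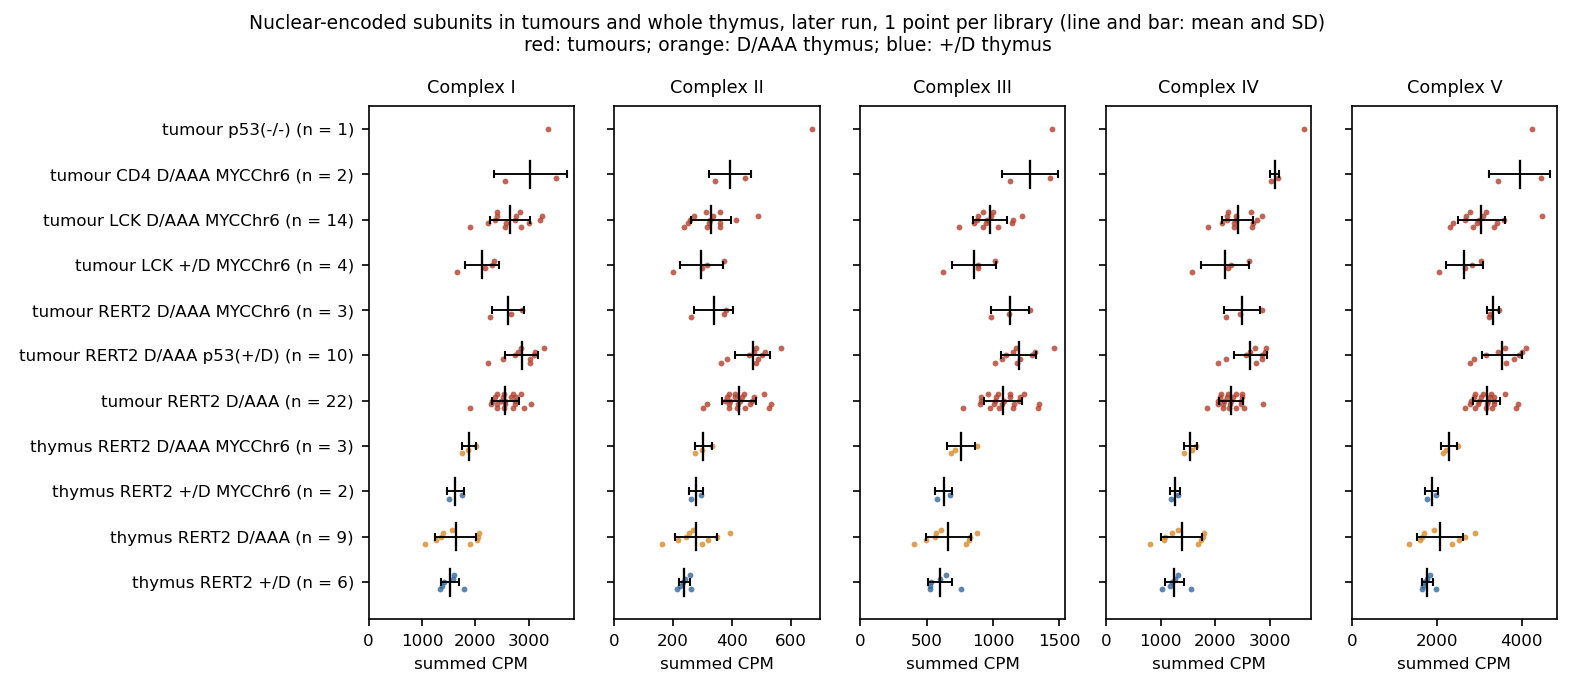
Summed CPM of each complex in every library of the later run, with the 11 groups running down the page, tumours above thymus. The RERT2 D/AAA tumours, at 7713 to 11663 CPM over all complexes, lie to the right of all 6 +/D thymus libraries, whose highest sum was 6342 CPM.

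Against +/D thymus, 68 of 82 members (82.9%) were higher in tumours and 0 were lower, while 22.4% of 12381 genes were called higher and 41.5% in either direction. Members had a median log2 fold change of 0.81, against 0.05 for all genes. In 31 members (37.8%) every tumour lay above every +/D thymus library, against 4.04% of all genes. Higher were 29 of 35 members of complex I, 3 of 4 of complex II, 8 of 8 of complex III, 12 of 14 tested in complex IV and 16 of 17 of complex V. None of the 4 complex II assembly factors was called. Against D/AAA thymus, 67 members (81.7%) were higher and 1 was lower, with 18.1% of 11634 genes called higher, 16.8% lower and 34.9% in either direction. The median was 0.68 for members and 0.04 for all genes. The 2 comparisons share the same tumours.

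Cox6c, a membrane subunit of complex IV, had 181, 236 and 271 CPM (lowest, median, highest) in tumours, 48.4, 79.5 and 164 CPM in D/AAA thymus and 62.9, 73.9 and 93.0 CPM in +/D thymus. Tumours lay above every thymus library of either genotype. Its log2 fold change was 1.16 ± 0.15 over D/AAA thymus (adjusted p = 1.23e-06) and 1.58 ± 0.11 over +/D thymus (adjusted p = 4.81e-12). Ndufb9, of the complex I membrane arm, had 129, 189 and 289 CPM in tumours, 36.6, 66.7 and 149 in D/AAA thymus and 45.9, 63.0 and 82.2 in +/D thymus. It did not overlap with +/D thymus (1.57 ± 0.15, adjusted p = 1.02e-09) and overlapped with D/AAA thymus.

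Atp5g1 had 86.7, 137 and 193 CPM in tumours, 35.7, 60.2 and 82.5 in D/AAA thymus and 36.2, 50.1 and 65.3 in +/D thymus. Again no thymus library reached the lowest tumour, and the fold change was 1.20 ± 0.14 over D/AAA thymus (adjusted p = 2.02e-07) and 1.47 ± 0.16 over +/D thymus (adjusted p = 1.07e-08). Uqcr11 and Atp5k, small accessory subunits of complexes III and V, rose over D/AAA thymus by 1.16 ± 0.15 (adjusted p = 5.15e-07) and 1.12 ± 0.14 (adjusted p = 5.15e-07). They, Atp5g1, Cox6c, Cox6a1 and Ndufb3 were the 6 members (7.32%) in which every tumour lay above every D/AAA thymus library, against 0.112% of all genes. Uqcrq and Atp5g2, which were among the most reduced at DP, rose over +/D thymus by 1.51 ± 0.18 (adjusted p = 5.31e-08) and 1.65 ± 0.27 (adjusted p = 1.03e-05).

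Complex II was uneven. Sdha, which was not called, had medians of 116 CPM in tumours, 108 in D/AAA thymus and 99.6 in +/D thymus. Sdhb had medians of 184 CPM in tumours, 90.0 in D/AAA thymus and 70.7 in +/D thymus. The membrane anchors had medians of 61.0 (Sdhc) and 49.4 CPM (Sdhd) in tumours, 40.1 and 29.5 CPM in D/AAA thymus, and 36.4 and 24.3 CPM in +/D thymus. The 3 smaller subunits were called higher against both genotypes. Cox7a2l was the only member lower in tumours, against D/AAA thymus: it had 59.2, 100 and 208 CPM in tumours and 131, 154 and 177 CPM in that thymus (-0.48 ± 0.16, adjusted p = 0.0185). The groups overlapped, with 3 of 22 tumours above the thymus median.

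Other gene lists moved at the same time, with 22.4% of all tested genes called higher over +/D thymus and 41.5% in either direction. Of 16 citric acid cycle genes, 11 were higher in tumours than in +/D thymus and 0 lower, led by Fh1 (1.59), Suclg2 (1.26) and Sucla2 (1.19). Of 12 tested mitochondrial-encoded genes, 4 were higher, led by mt-Nd1 (1.13). Of 20 assembly factors of complexes III and IV, 7 were higher and 0 lower, led by Sco2 (2.45), which delivers copper to complex IV, and Uqcc2 (1.44). Cell division genes were higher in 6 of 8, with sums of 661 to 1177 CPM in tumours, against 513 to 643 CPM in +/D thymus, and B cell genes were lower in 4 of 5. CT010467.1 took 34.8% to 46.4% of counts in these tumours and 45.8% to 53.2% in +/D thymus. The part of these differences in the members' values was not tested.

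Between D/AAA and +/D thymus of the later run 0 of 80 members and 0.0% of 11044 genes were called. The median log2 fold change was 0.14, 62 members were positive and 4 (5.0%) had an unadjusted p under 0.05, against 8.21% of all genes, while DESeq2 called 0. The smallest p-values were those of Sdhd (0.55 ± 0.23, adjusted p = 0.539), Atp5g2 (0.99 ± 0.41, adjusted p = 0.54) and Ndufv1, which binds NADH in complex I (0.43 ± 0.18, adjusted p = 0.557). D/AAA thymus was uneven among its own libraries. Replicates 3, 5, 7 and 8 had 157, 164, 147 and 120 CPM of Cox6c, above every +/D thymus library, while the other 5 had 48.4 to 79.5 CPM. The same 4, singled out here by Cox6c, were the highest in the summed level, which includes Cox6c. Their sums were 7577, 7533, 7978 and 7066 CPM, against 3776 to 5658 CPM in the other 5. They also had 244, 314, 6.44 and 262 CPM of Cd4, against 458 to 673 CPM, and summed cell division genes of 789, 921, 924 and 858 CPM, against 353 to 562 CPM. The libraries were kept together under their label, and no test was made between them.

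Chromosomal position was set beside these values because the D/AAA genotype is labelled aneuploid. The tested members on chromosome 15 were Atp5g2, Cox6c, Ndufa6 and Ndufb9. In tumours over +/D thymus their median log2 fold change was 1.58 and all 4 were called, against a median of 0.64 for the 480 genes tested on that chromosome. Over D/AAA thymus the median was 0.96 for the 4 members, all called, and 0.38 for the chromosome. In comparisons in which none of the 4 was called, the members' median was 1.0 and the chromosome's 0.40 for early tumours over DP cells, 0.75 and 0.26 for D/AAA over +/D cells at DP, and 0.47 and 0.28 for D/AAA over +/D thymus. At DP over DN4 of +/D thymus the medians were -0.93 for the 4 members and -0.07 for the chromosome. The other 64 members called higher over +/D thymus lie on other chromosomes.

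**Figure D4:**
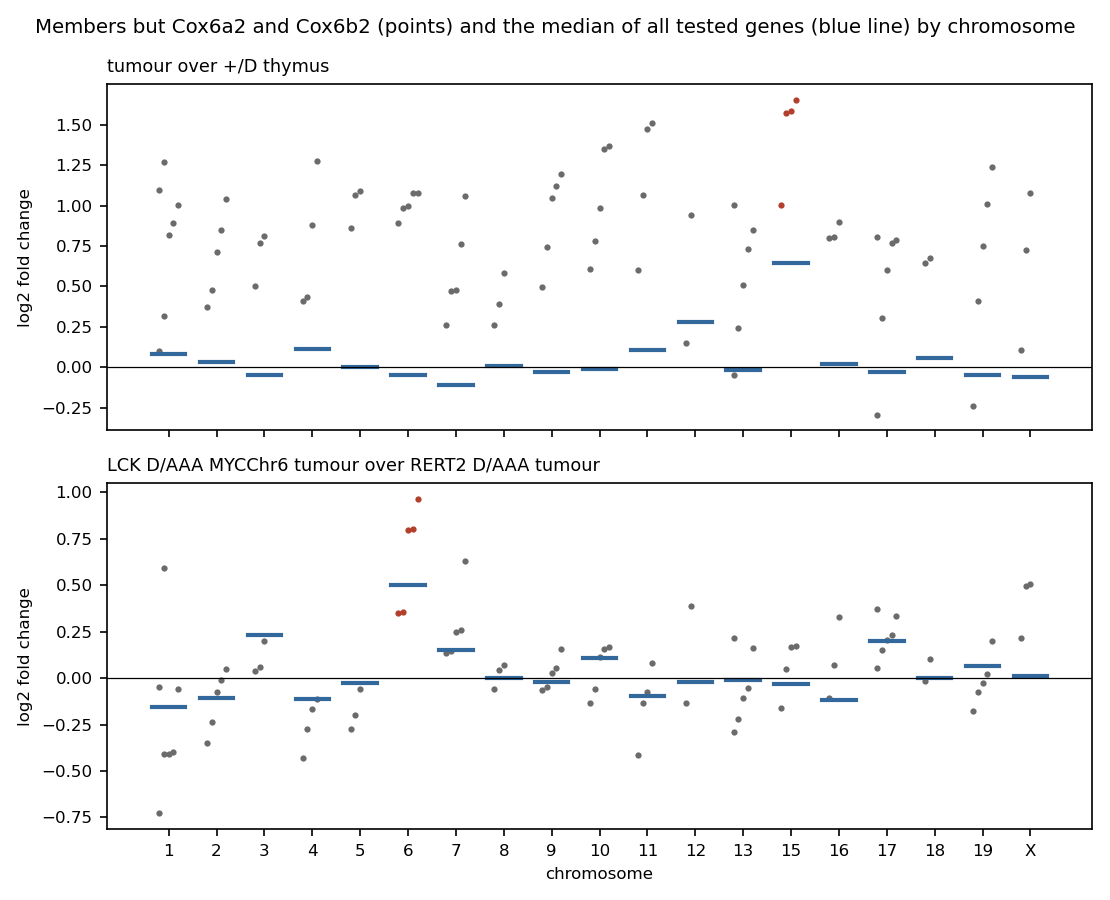
Log2 fold change of each member by chromosome, for RERT2 D/AAA tumours over +/D thymus (chromosome 15 in red) and for LCK D/AAA MYCChr6 over RERT2 D/AAA tumours (chromosome 6 in red), with the median of all tested genes as a blue line. Cox6a2 and Cox6b2 are left out. Most members lie above the line in the first comparison, at a median of 0.81, and are spread around it in the second, at a median of 0.04.

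RERT2 D/AAA tumours with p53(+/D) were compared with those without. Of 82 members, 7 (8.54%) were higher and 0 lower, with 0.742% of 11453 genes called higher and 1.29% in either direction, and the members' median was 0.12. Ndufs5 had 26.4, 42.8 and 60.0 CPM in p53(+/D) tumours, against 12.4, 26.7 and 46.4 CPM in the others (0.67 ± 0.15, adjusted p = 0.0174). Cox6a1, the common isoform of Cox6a, had 222, 410 and 487 CPM in p53(+/D) tumours, against 198, 261 and 399 CPM in the others (0.50 ± 0.10, adjusted p = 0.00785). Uqcrh, the hinge protein of complex III, rose by 0.48 ± 0.10 (adjusted p = 0.00799), with all 10 p53(+/D) tumours above the median of the others. Each of these groups overlapped. Atp5mpl (0.56 ± 0.14, adjusted p = 0.0325) and Atp5j2 (0.44 ± 0.11, adjusted p = 0.0408), both small membrane subunits of ATP synthase, and Ndufb6 and Uqcr10 made up the 7. DESeq2 called 12. Of the genes called by edgeR, Ndufs5, Uqcrh and Ndufb6 lie on chromosome 4. Sdhb, on the same chromosome, was higher but not called (0.39 ± 0.11, adjusted p = 0.0782). Cox6a1 and Atp5j2 lie on chromosome 5 and Uqcr10 on chromosome 11. The part of chromosomal position in these calls was not tested. Other genes share 21.7% of the 50-base windows of Ndufs5 and 31.6% of those of Ndufb6.

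The 3 RERT2 D/AAA tumours with MYCChr6 had 4 of 83 members (4.82%) higher than the 22 without and 0 lower, with 5.65% of 13708 genes called higher and 9.23% in either direction, so the members' share was near that of all genes. Ndufa4 had 445, 256 and 164 CPM in the 3 tumours, against 86.3, 157 and 211 CPM (lowest, median, highest) in those without MYCChr6 (0.97 ± 0.21, adjusted p = 0.00285). Ndufb2, of the complex I membrane arm, had 77.0, 55.4 and 39.6 CPM, against 20.6, 31.3 and 52.9 CPM (0.83 ± 0.23, adjusted p = 0.0196). The same library was the highest for both genes, and the groups overlapped. Without it, Ndufa4 was 0.50 higher and was no longer called, and leaving out each of the 3 in turn gave 1 to 3 calls. Atp5d, a central stalk subunit, did not overlap, with 275, 314 and 367 CPM, against 164, 222 and 274 CPM (0.57 ± 0.13, adjusted p = 0.00633). Uqcr11 was also called (0.55 ± 0.17, adjusted p = 0.0351).

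LCK D/AAA MYCChr6 tumours differed from RERT2 D/AAA tumours in both directions. Of 82 members, 12 (14.6%) were higher and 9 (11%) lower, with 18.6% of 11130 genes called higher, 16.7% lower and 35.3% in either direction, so that members were called no more often than other genes. The members' median was 0.04. Line and MYCChr6 differ together between these groups and cannot be told apart. Ndufa4 had 180, 287 and 400 CPM in LCK tumours, against 86.3, 157 and 211 CPM in RERT2 tumours, and all 14 LCK tumours lay above the RERT2 median (0.96 ± 0.11, adjusted p = 3.17e-08). Ndufb2 had 43.1, 53.6 and 69.7 CPM in LCK tumours, against 20.6, 31.3 and 52.9 CPM in RERT2 tumours (0.80 ± 0.12, adjusted p = 1.36e-06). Ndufa5, an accessory subunit of the ubiquinone module, rose by 0.80 ± 0.15 (adjusted p = 4.06e-05). The groups overlapped in all 3 genes, and all 3 lie on chromosome 6.

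The 5 tested members on that chromosome were Ndufa4, Ndufa5, Ndufa9, Ndufb2 and Sdhaf3. They had a median of 0.80 in LCK over RERT2 tumours with 4 called higher, against 0.50 for the 554 genes tested there. In RERT2 tumours with MYCChr6 over those without, their median was 0.83 with 2 called, against 0.38 for 712 genes. In RERT2 tumours over +/D thymus it was 1.0, against -0.05.

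In complex II, 2 of 4 subunits were lower in LCK tumours. Sdhc had 26.5, 38.6 and 62.8 CPM in LCK tumours, against 43.8, 61.0 and 92.2 CPM in RERT2 tumours (-0.73 ± 0.12, adjusted p = 1.12e-05). Of 14 LCK tumours, 1 lay above the RERT2 median, and the ranges overlapped. Sdhb fell by 0.43 ± 0.13 (adjusted p = 0.00827), and Sdha and Sdhd were not called. Ndufa10 fell by 0.41 ± 0.10 (adjusted p = 0.00155) and Uqcrq by 0.41 ± 0.13 (adjusted p = 0.0145). Ndufb11 rose by 0.49 ± 0.10 (adjusted p = 0.000112). Sdhaf1 rose by 0.63 ± 0.18 (adjusted p = 0.00726), but 69.0% of its windows are shared with E130208F15Rik, which overlaps it on the opposite strand.

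By contrast, 11 of 12 tested mitochondrial-encoded genes were higher in LCK tumours, with mt-Nd4 at 1.31, mt-Nd6 at 1.04 and mt-Co2 at 1.04. Of all tested genes, 18.6% were called higher. The nuclear to mitochondrial ratio was 1.05 ± 0.48 in LCK D/AAA tumours and 1.72 ± 0.40 in RERT2 D/AAA tumours. B cell genes were higher in 5 of 5, with sums of 113 to 5957 CPM in LCK tumours and 18.5 to 287 CPM in RERT2 tumours, and their part was not tested. Between LCK D/AAA and LCK +/D tumours with MYCChr6, 0 of 82 members and 0.0% of 12791 genes were called. The median was 0.21, 74 members were positive and 11 (13.4%) had an unadjusted p under 0.05, against 5.11% of all genes, while DESeq2 called 0. Ndufs1 had 21.1, 33.0 and 43.7 CPM in the 14 D/AAA tumours and 19.7 ± 5.97 CPM in the 4 +/D tumours (0.68 ± 0.23, adjusted p = 0.942).

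Tissue-restricted isoforms of complex IV were mostly silent. Cox7b2 had 0 counts in all 157 libraries, Cox8c had 4 counts in 1 library, and Cox8b had at most 6 counts in any of the 8 libraries with a count. Ndufa4l2 was seen in 5 earlier and 12 later libraries and Cox4i2 in 29 and 28, never above 3.40 CPM. Depth limits these values, since a count of 0 allows 3 counts in a library. Cox6b2 was the exception among sorted cells, as described for DN2 and DN4. Per kilobase of exon it made up 0.196% of the Cox6b pair (Cox6b1 and Cox6b2) at DN1, 5.13% at DN2, 3.16% at DN3, 0.684% at DN4 and 1.36% at DP of +/D thymus. Cox7a1 was 4.18% of the Cox7a1 and Cox7a2 pair at DN2 and 3.99% at DN3.

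Cox6a2, the heart and skeletal muscle isoform of Cox6a, was the exception among tumours. It had 0, 2.18 and 78.9 CPM (lowest, median, highest) in RERT2 D/AAA tumours, 0, 0 and 4.96 CPM in D/AAA thymus and 0, 0.100 and 0.743 CPM in +/D thymus. A few tumours were far above the rest, 3 of 22 being at 10 CPM or more, and the groups overlapped. It rose by 3.41 ± 1.14 over D/AAA thymus (adjusted p = 0.0202) and by 4.78 ± 1.46 over +/D thymus (adjusted p = 0.00918). Between D/AAA and +/D thymus it had too few counts to be tested. It thus passed the count filter through the tumours, and only a rise could have been called. In p53(+/D) tumours it had 1.51, 8.41 and 67.0 CPM, with 4 of 10 at 10 CPM or more, and did not pass the test against tumours without p53(+/D) (1.32 ± 0.77, adjusted p = 0.453). Muscle markers in RERT2 tumours summed to between 0 and 12.6 CPM, with Myh2 and Mb at 0. The 1 muscle marker with enough counts to test, Ckm, was higher over +/D thymus (3.48 ± 1.34, adjusted p = 0.037), and its part in the Cox6a2 values was not tested.

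**Figure D5:**
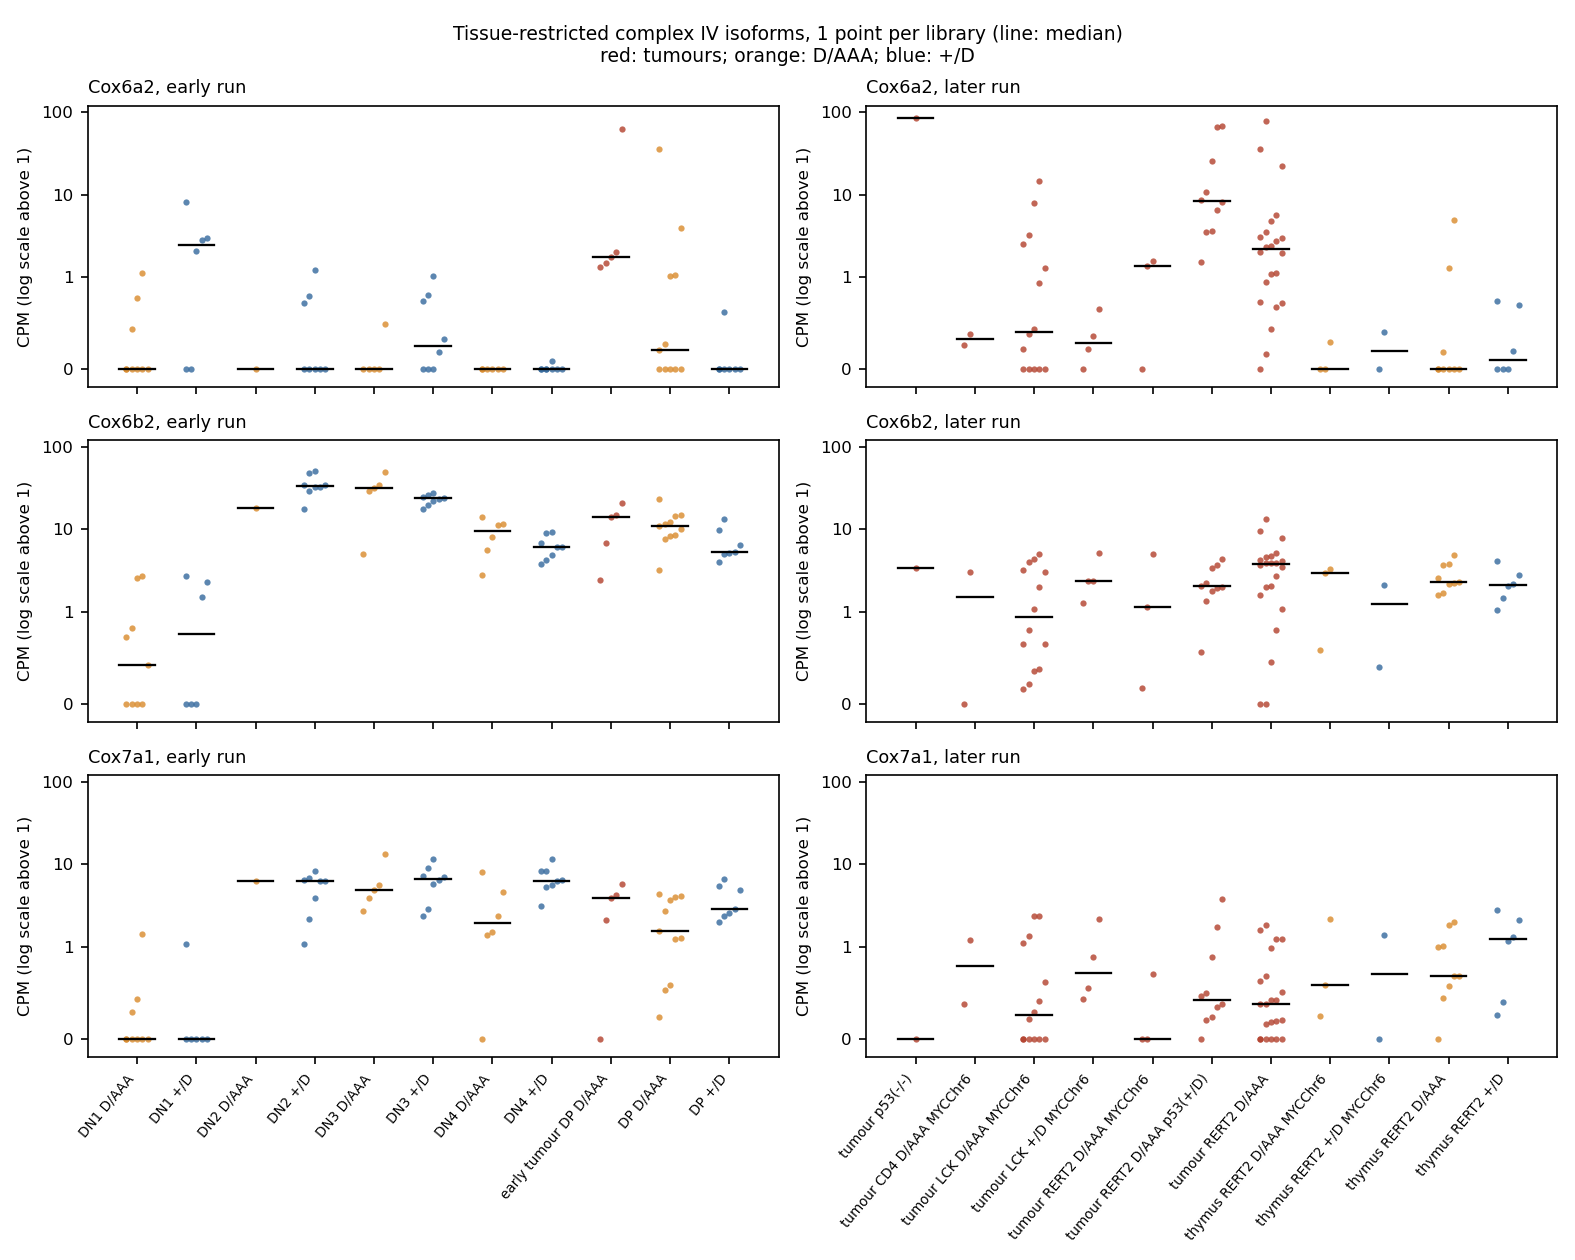
CPM of Cox6a2, Cox6b2 and Cox7a1 in every library by group, on an axis that is logarithmic above 1, with a line at each group's median. Cox6a2 is high in single tumours, up to 78.9 CPM in RERT2 D/AAA tumours, whereas Cox6b2 is high in every DN2 and DN3 +/D library, at 17.5 to 51.4 CPM.

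Some values rest on reads that another gene could also yield. For 8 of the 88 members more than 20% of 50-base windows occur in another gene: Atp5g2, Atp5o, Cox7c, Ndufa13, Ndufb6, Ndufs5, Sdhaf1 and Uqcrb. Of these, Sdhaf1 was above 50%. Whether reads were counted by strand is not given in the sources used here, so overlapping opposite-strand genes could not be separated from 4 members with more than 20% of exon overlap.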

How the data were processed

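RNA was extracted (RNeasy Plus Mini) from 5000 or more sorted cells, or from lymphomas, and read on a HiSeq2000, per the labels' protocols. Per the submitters' processing notes, FastQC, STAR 2.5.3a, RSEM 1.3.0 and GRCm38 were used. The authors deposited 2 gene tables of expected counts (RSEM estimates), whose values were whole numbers. The sources used here give neither strandedness nor the annotation release, and GENCODE M21 (GRCm38) supplied names, gene types and positions. Groups followed the labels, and replicates were numbered in accession order.

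Here, genes were kept by filterByExpr (minimum count 10), scaled by TMM and tested with edgeR 4.0.16 quasi-likelihood fits in R 4.3.3, robust and 2-sided, for each pair of groups within 1 run. P-values were adjusted by Benjamini-Hochberg over all genes tested, with a threshold of 0.05. SE was taken as the size of the fold change over the root of its F statistic. Levels used Python 3.11.15 with pandas 2.3.3 and numpy 2.4.6, and figures matplotlib 3.10.9. Promoters came from RefSeq (GRCm38.p6). The fits were tested on simulated data. Sums over members were described and not tested. The 2-library groups, the p53(-/-) tumour, unsorted early tumours, the DN2 D/AAA library and D/AAA MYCChr6 thymus were left out of tests.

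In each comparison the called members with the greatest changes were named, up to 5 in each direction, or the 3 with the smallest p where none was called. The isoforms, the c-ring genes and the Sdh genes were named throughout. The values of some genes are not reported here. Members and lists were chosen with earlier results of these data known. Alternatives were DESeq2 1.42.0, relative log expression scaling, no low-count filter, one fit of each run, plain totals, libraries left out, and blocks by library number.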

Additional observations from a re-analysis of the deposited data

Results flagged for a closer look

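In 76 sets of values (1 group and 1 quantity each, the quantities being the 5 complex sums and Cox6a2), 6 held a single library far from the others, and these fell in 3 groups. Chance alone would give about 1 in 20 sets if they were independent, which sums over the same libraries are not. DN1 +/D replicate 1 held 3 of them. Its complex I sum was 3182 CPM, against 4568 to 5260 CPM in the other 5 libraries, its complex III sum 1125 CPM, against 1675 to 1940 CPM, and its complex IV sum 1758 CPM, against 3008 to 3599 CPM. The same library had 252 CPM of red cell genes and 182 CPM of myeloid genes, and its part in the DN2 over DN1 counts is given with that comparison.

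Cox6a2 gave the other 3. Early DP tumour replicate 4 had 62.1 CPM, against 1.33 to 2.0 CPM in the other 4 tumours. DN1 +/D replicate 5 had 8.14 CPM, against 0 to 3.01 CPM, and D/AAA thymus replicate 7 had 4.96 CPM, against 0 to 1.29 CPM. That thymus library had 6.44 CPM of Cd4.

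Signal was also seen in groups that entered no comparison. The lower of the 2 CD4 D/AAA MYCChr6 tumours had a summed level of 10497 CPM over the 5 complexes and the p53(-/-) tumour 13336 CPM, where the highest +/D thymus library had 6342 CPM. The p53(-/-) tumour had 85.7 CPM of Cox6a2, 12.6% of the Cox6a pair per kilobase of exon. These differences were not tested.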

How the results depend on the processing

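No named member changed direction under any alternative run; 430 values kept their side of the threshold, 24 came to pass it and 23 no longer did. Of the member counts, 99 stayed within 1.5 times the main count and 18 did not. DESeq2 called 1 member for genotype at DP, 1 at DN3 over DN2 of +/D thymus, 2 at DN4 over DN3 of D/AAA thymus, 4 in early tumours over DP and 12 in p53(+/D) over other tumours. One fit of the run called 2 members at DN4 over DN3 of +/D thymus and 21 in early tumours. Without the low-count filter, and within one block of library numbers, 1 member was called at DN4 over DN3 of D/AAA thymus. For DP over DN4 of D/AAA thymus 0 were called within a block, which kept DP libraries 1 and 5, and 45 were called without them. For early tumours 17 were called within a block and 35 without DP libraries 1 and 5. Leaving out 1 library at a time gave 0 to 1 calls at DN4 over DN3 of D/AAA thymus, 1 to 3 in RERT2 MYCChr6 tumours and 0 to 38 in early tumours. In 2 other comparisons only 1 chosen library, a replicate 1 that stood apart, was left out. This gave 52 calls at DP over DN4 of D/AAA thymus and 47 at DN2 over DN1. The last 2 and the 38 were added after seeing the data. The cause was not tested. Among 180 complex sums, 3 moved by more than 1 SD under plain totals, all of complex II: 0.59 at DN2 over DN1, 0.26 at DN4 over DN3 and -0.84 at DP over DN4 of +/D thymus. Shallow libraries limit low members such as Cox6b2 and Cox6a2. No paired analysis was possible because the labels give no replicate numbers that groups share. Library numbers often run from stage to stage, but no label says that neighbouring numbers share an animal.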

Other observations

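The other groups with MYCChr6 were few. Summed levels over the 5 complexes were 6774 ± 509 CPM in D/AAA MYCChr6 thymus (n = 3) and 5678 ± 501 CPM in +/D MYCChr6 thymus (n = 2), both within the range of D/AAA thymus without MYCChr6. LCK D/AAA MYCChr6 tumours had 9419 ± 1241 CPM (n = 14) and LCK +/D MYCChr6 tumours 8098 ± 1420 CPM (n = 4), and the groups overlapped. The 1 DN2 D/AAA library had 20306 CPM, inside the range of the 8 +/D DN2 libraries, and 16.4 CPM per kb of Cox6b2, which was 3.69% of the Cox6b pair per kilobase of exon.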
